A study of Mus musculus with 9 samples.

Results

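The homeobox, Sox, Fox, Tbx and Gata transcription factors were examined in chromatin immunoprecipitation sequencing (ChIP-seq) libraries of mouse pancreatic endocrine cell lines. Members were the protein-coding genes of the authors' table of windows whose names begin with Hoxa to Hoxd, Lhx, Dlx, Six-class, Pou, Tbx, Sox, Fox, Gata, Meis or Pbx, or are Onecut2 or Onecut3. Sox9, Foxa1, Foxa2 and Pou3f4 were left out. This gave 77 windows assigned to 60 genes, of 17641 windows and 14969 genes in all. By family these were 1 Hox, 5 Lhx, 7 Six-class, 7 Dlx, 7 Pou, 2 Onecut, 9 Meis and Pbx, 12 Sox, 21 Fox, 2 Tbx and 4 Gata windows. Of the 77 windows, 48 lay within 1 kb of the start of their gene, 18 at 1 to 10 kb and 11 farther away, and each gene had 1 to 4 of them. A far window carries the name of the gene to which the authors assigned it, and no more is implied.

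The antibody was labelled H3K9me3, a histone mark linked to silent heterochromatin. The groups were betaTC3 cells, a murine beta cell line with no treatment (n = 2), and alphaTC1 cells, of alpha cell origin, taken at 5 days after they received shRNA against Smndc1 (n = 2) or the empty vector (n = 2). Smndc1 encodes a Tudor-domain protein of the spliceosome. Each group also had 1 input sample, used by the authors in peak calling. Each line is 1 transformed cell population. Whether the replicates were grown apart is not in the labels, and the p-values then cover no more than the scatter among libraries. The betaTC3 samples were listed with no treatment, so the cell line and the transduction cannot be told apart in that comparison. The knockdown level of Smndc1 was not analysed here. The bulk libraries cannot tell a mark on more cells apart from more of the mark per cell.

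These families bind DNA through the homeodomain, the HMG box, the forkhead, the T-box or the GATA zinc finger, and they pattern the embryo and fix cell identity. Most are switched on in few tissues, and Polycomb repressors typically hold their CpG-rich starts silent elsewhere. In the pancreas, Gata4 and Gata6 act in the early bud, Onecut factors act ahead of the endocrine lineage, Sox4 acts in endocrine progenitors, and Foxo1 responds to insulin signalling.

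The promoter sequences of 6 members were chosen because the window near each start had signal in 1 of the cell lines and little or none in the other. They run from 250 bases before to 50 bases after the start, are given 5′ to 3′ on the gene's strand, and come from RefSeq GRCm38.p6. The motifs were searched on both strands, with overlapping matches counted. Capitals mark matches to CGCG, which is its own complement, and to the CCAAT box on either strand. The TATAAA box had no match in these 6 promoters. Peaks of both betaTC3 lists overlapped the first 3 promoters by at least 1 bp, and no alphaTC1 peak did.
Lhx1, chr11:84525485-84525784, minus strand: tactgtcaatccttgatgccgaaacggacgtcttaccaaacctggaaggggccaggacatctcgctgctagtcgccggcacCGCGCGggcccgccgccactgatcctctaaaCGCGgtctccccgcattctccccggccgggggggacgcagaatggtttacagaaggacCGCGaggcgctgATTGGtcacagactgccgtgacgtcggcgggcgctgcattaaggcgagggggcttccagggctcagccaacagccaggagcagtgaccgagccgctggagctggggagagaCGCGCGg
Six2, chr17:85688205-85688504, minus strand: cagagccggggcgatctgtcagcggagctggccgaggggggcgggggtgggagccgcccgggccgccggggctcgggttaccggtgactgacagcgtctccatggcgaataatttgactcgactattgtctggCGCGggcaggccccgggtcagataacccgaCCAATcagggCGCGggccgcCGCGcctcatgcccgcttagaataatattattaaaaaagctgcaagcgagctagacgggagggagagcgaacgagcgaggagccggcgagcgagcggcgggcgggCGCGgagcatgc
Sox13, chr1:133424163-133424462, minus strand: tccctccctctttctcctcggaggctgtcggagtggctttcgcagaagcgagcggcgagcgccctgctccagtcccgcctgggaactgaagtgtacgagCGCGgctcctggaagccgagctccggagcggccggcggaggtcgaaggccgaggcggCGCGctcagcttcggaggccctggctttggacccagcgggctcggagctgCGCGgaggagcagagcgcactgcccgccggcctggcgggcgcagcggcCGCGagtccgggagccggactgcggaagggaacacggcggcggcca
The other 3 promoters were overlapped by a peak in none of the betaTC3 lists. Gata3 and Dlx2 were overlapped in all 4 alphaTC1 lists and Pou4f2 in 3 of them.
Gata3, chr2:9878551-9878850, minus strand: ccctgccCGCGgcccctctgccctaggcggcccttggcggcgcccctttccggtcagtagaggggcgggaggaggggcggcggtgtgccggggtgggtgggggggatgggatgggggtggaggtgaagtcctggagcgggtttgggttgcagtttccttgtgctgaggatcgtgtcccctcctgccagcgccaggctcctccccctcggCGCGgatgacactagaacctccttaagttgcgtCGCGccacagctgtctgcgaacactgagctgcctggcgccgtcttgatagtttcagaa
Dlx2, chr2:71546705-71547004, minus strand: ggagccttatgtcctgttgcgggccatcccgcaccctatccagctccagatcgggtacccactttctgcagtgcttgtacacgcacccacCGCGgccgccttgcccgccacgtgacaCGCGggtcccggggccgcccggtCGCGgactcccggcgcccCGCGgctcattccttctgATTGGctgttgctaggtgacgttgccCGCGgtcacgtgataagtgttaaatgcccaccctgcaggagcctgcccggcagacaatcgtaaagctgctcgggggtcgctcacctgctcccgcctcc
Pou4f2, chr8:78436598-78436897, minus strand: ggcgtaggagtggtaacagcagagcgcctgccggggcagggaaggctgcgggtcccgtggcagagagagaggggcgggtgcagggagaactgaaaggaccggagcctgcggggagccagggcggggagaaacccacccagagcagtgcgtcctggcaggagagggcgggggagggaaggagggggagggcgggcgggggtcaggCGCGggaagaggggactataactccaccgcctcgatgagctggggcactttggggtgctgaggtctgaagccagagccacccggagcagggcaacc
The CGCG count was 6 in Lhx1, 4 in Six2, 4 in Sox13, 3 in Gata3, 5 in Dlx2 and 1 in Pou4f2. CpG observed over expected, the frequency of CG relative to that of C and G, ranged from 0.563 in Pou4f2 to 1.13 in Six2.

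Of the 48 genes with a window within 1 kb of the start, 32 had a promoter within 1 kb of the window in the RefSeq table. Their median CpG observed over expected was 0.802, against 0.383 for all 32817 promoters of the table, with or without a window. The member promoters were taken only where a window lay near the start, so the sets differ in more than family. How far that accounts for the contrasts was not tested. CGCG was in 27 of 32 (84.4%, against 38.0% of all), CCAAT in 12 (37.5%, against 37.4%) and TATAAA in 2 (6.25%, against 13.6%). The promoters of windows called higher in betaTC3 had a median of 0.667 (11 promoters), those called lower 0.658 (7) and those not called 0.858 (14). These describe the letters of the 300-base promoters, of which 13 of 32 overlapped their window, and a missing match says nothing about a factor.

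Values are scaled reads, whole reads multiplied by 1 factor per library. The 6 libraries held 4530066 to 9924487 reads in windows. The groups were compared by limma on log2(scaled reads + 1), and a window was called at a Benjamini-Hochberg adjusted p below 0.05 over all 17641 windows. Differences are on that log2 scale, which understates low windows, and ± gives the standard error (n = 2 per group). For a group at 0 the fold was taken against 3 reads in each library (2.4 to 4.19 scaled reads) and stands as a lower bound. Floors and counting intervals cover counting error only.

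The signal was also read at markers of cell types. Of the windows of 8 beta cell markers with a window, 10 of 13 were called higher in betaTC3 and 0 lower. Of those of 9 alpha cell markers, 9 of 12 were lower and 3 higher. Against empty vector, 22.1% of all windows were called higher in betaTC3 and 33.2% lower. The share of alpha cell marker windows called higher was thus near that of all windows. Summed beta cell marker signal was 6520.0 to 6901 in betaTC3, 796 to 1030.0 in knockdown and 1192 to 1219 in empty-vector libraries. For the alpha cell markers the sums were 1206 to 1251, 3047 to 3989 and 3650.0 to 3769. The 3 alpha cell marker windows higher in betaTC3 belonged to Ttr, Gc and Etv1 (1.8 kb from its start). Gcg, the glucagon gene, was at 0 in both betaTC3 libraries, and Ins1, an insulin gene, had 354 and 314 scaled reads there, 0 in both knockdown libraries and 1.32 and 0 with empty vector. The single delta cell marker called, Sst, had 107 and 93.3 scaled reads in betaTC3, 1.19 and 1.40 with knockdown and 2.65 and 0 with empty vector. Other markers with windows, as higher and lower counts, were 1 and 2 of 3 for acinar, 0 and 1 of 1 for duct and 1 and 2 of 3 for fibroblast. They were 1 and 0 of 1 for macrophage and 0 and 1 of 3 for neuron. With 1 to 3 windows each, these sets are too small to compare with the shares of all windows. PP cell and endothelial markers had no window. Of the 17641 windows in the libraries labelled H3K9me3, 11801 were within 1 kb of a gene start. Most beta and alpha cell marker windows thus had more signal in the line of their own cell type. A mark linked to silent heterochromatin would be looked for in the other direction. The mark itself was not tested, nor was the reason for this direction, and higher signal is not read here as silencing.

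The first comparison asked which of these genes differ between the beta and the alpha line. Against empty vector, 25 of the 77 windows were called higher in betaTC3, 20 lower and 32 were not called. In all, 45 of 77 (58.4%) were called, and the share over all windows was 55.2% (22.1% higher and 33.2% lower), so the number of calls was close to that of any window. The median difference was 0.04, against -0.13 for all windows. Differences past 3 on the log2 scale were found in 22 of 77 windows (28.6%), against 19.6% of all windows. For windows within 1 kb of a start these shares were 15 of 48 (31.2%) and 12.2%. Of those 48 members, 14 were called higher and 16 lower, against 17.2% and 29.5% of all windows so placed.

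Of the 45 called windows, 38 were called in the same direction under every one of the 18 alternatives that tested them, 23 of them higher and 15 lower. The other 7 were Foxk2, Sox5, Meis3, Six5, the window 4.6 kb upstream of Sox4, the Meis2 start and the window 82.9 kb upstream of Dlx2. Where libraries were centred on their medians, which moved the median of all windows by 0.18 to 0.05, 31 of the members were called higher and 19 lower. Of all called windows 51.8% were then higher, against 40.0% without centring.

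**Figure D1:**
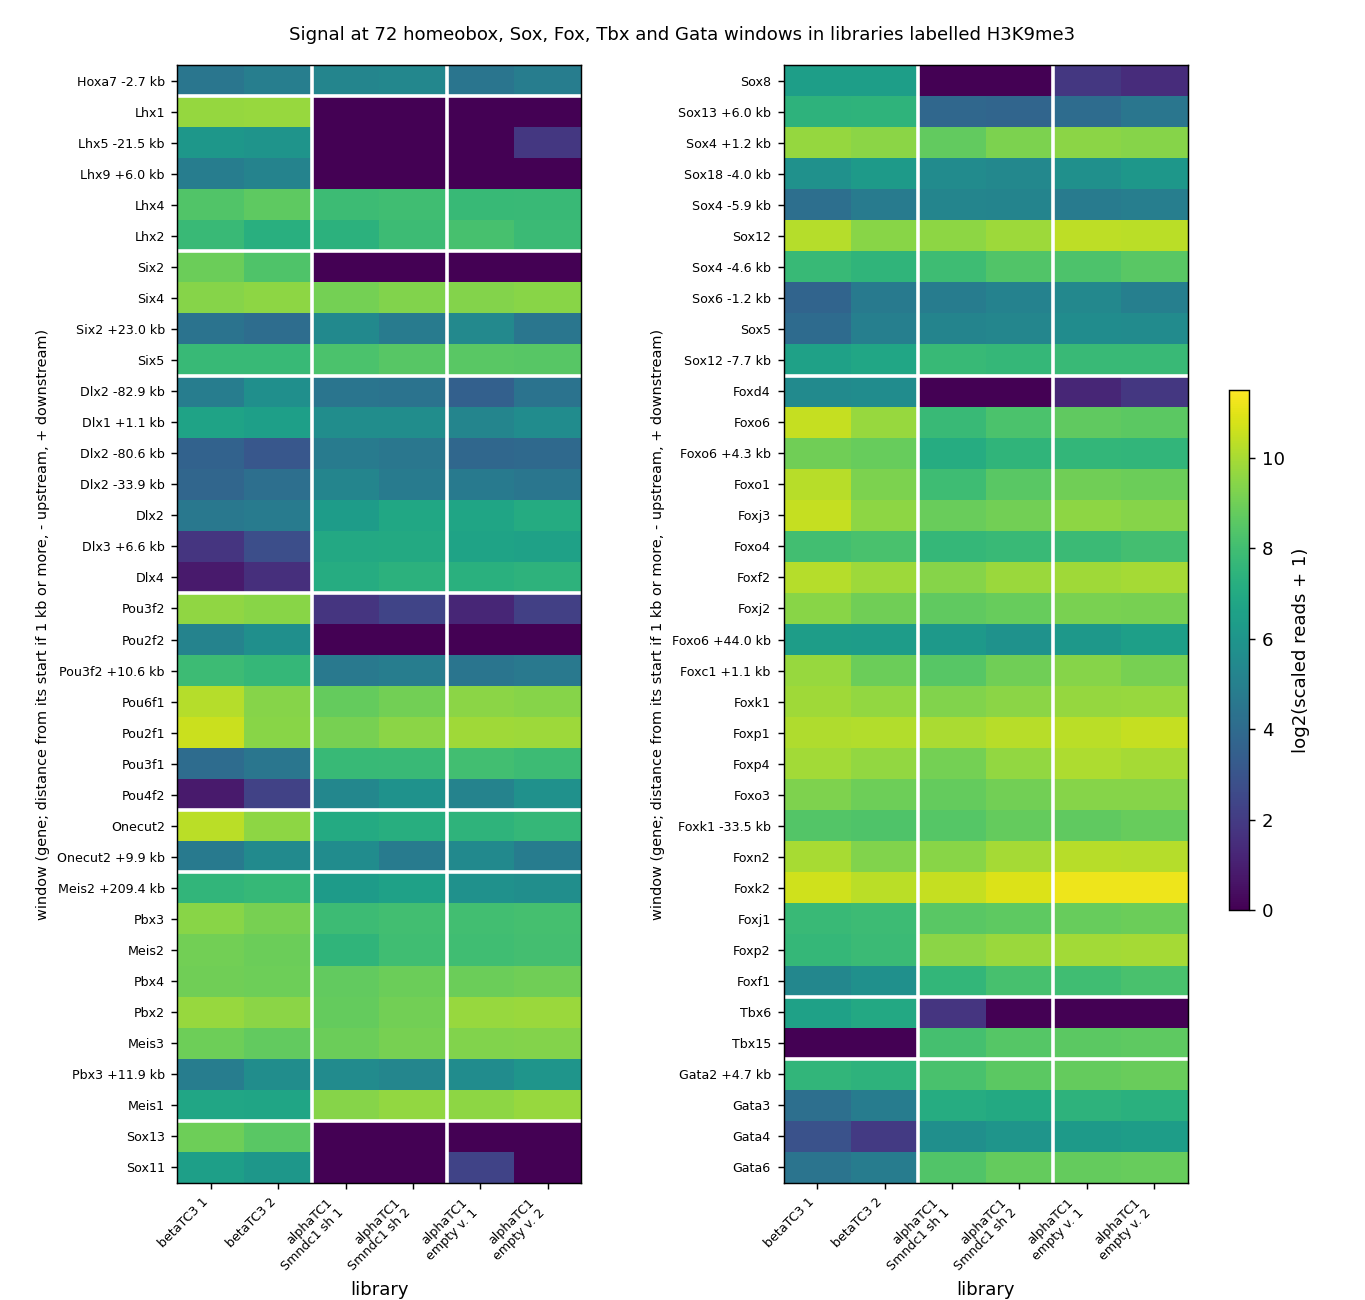
Heat map of log2(scaled reads + 1) for 72 of the 77 windows (rows, grouped by family, with white lines between families) in each of the 6 libraries (columns). The windows of Lhx1, Lhx9 and Pou2f2 and the start windows of Six2 and Sox13 were at 0 in the 4 alphaTC1 libraries and that of Tbx15 was at 0 in both betaTC3 libraries, whereas Foxk2, Foxp1 and Sox12 were bright in all 6.

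**Figure D2:**
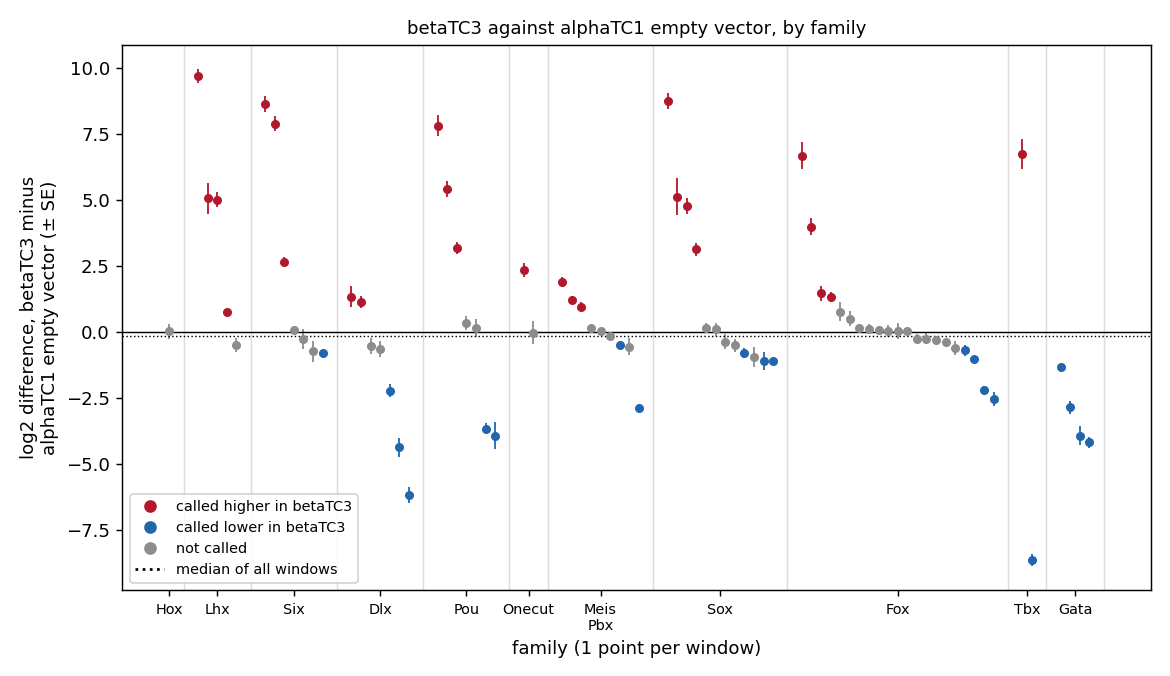
Log2 difference between betaTC3 and alphaTC1 empty vector (points, 1 per window, with standard errors) by family, coloured by call, with a dotted line at the median of all windows, -0.13. The 4 Gata windows lie between -4.17 and -1.32, and 4 of 5 Lhx windows lie above 0.

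The LIM-homeodomain (Lhx) factors act in head, limb, nerve and gonad development. Of their 5 windows 4 were called higher in betaTC3 and 0 lower, against 22.1% and 33.2% of all windows. Lhx1, a factor of the head organizer and kidney, had 829.7 and 835 scaled reads in betaTC3 and 0 in all 4 alphaTC1 libraries at chr11:84524723-84525123, which lies 412 bp inside the gene. That is at least 251-fold higher than in empty vector (difference 9.70 ± 0.26, adjusted p = 6.23e-06 by limma). The median over windows of chromosome 11 with a mean of at least 100 scaled reads was -0.73 in this comparison, and Lhx1 differed in the other direction. Lhx9, a gonadal factor, had 28.7 and 34.3 scaled reads in betaTC3 at a window 6.0 kb inside the gene and was also at 0 in all 4 alphaTC1 libraries (at least 9.50-fold higher, adjusted p = 1.8e-05 by limma). Over Lhx9 itself or within 1 kb, each betaTC3 list and the second knockdown list held 1 peak. A window 21.5 kb upstream of Lhx5, a forebrain factor, had 66.3 and 60.9 scaled reads in betaTC3 and 0 and 2.66 with empty vector. Its pooled read ratio was 40.0 with an exact 95% counting interval of 13.4 to 196 (adjusted p = 0.00043 by limma). Over Lhx5 itself or within 1 kb, the betaTC3 lists held 2 and 3 peaks and each alphaTC1 list 1.

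Both other Lhx genes had signal in every library. Lhx4, a pituitary and motor neuron factor, had 336 and 399.7 scaled reads in betaTC3, 233 and 247 with knockdown and 216 and 220.2 with empty vector. The betaTC3 libraries lay above the alphaTC1 libraries without overlap (difference from empty vector 0.75 ± 0.14, adjusted p = 0.00425 by limma). Lhx2, a factor of eye and forebrain, had 224 and 149 scaled reads in betaTC3, 168 and 233 with knockdown and 287 and 231 with empty vector, and was not called (adjusted p = 0.157 by limma). The peaks at Lhx1 were 4341 and 4399 bp wide in the betaTC3 lists, and those at Lhx4 1641 and 1713 bp.

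LIM-homeodomain factors work through the adaptor Ldb1, the SSBP proteins that stabilise it and the competing LMO proteins. Of 14 windows of 8 such partner genes, 2 were called higher (14.3%, against 22.1% of all windows) and 6 lower (42.9%, against 33.2%). Their median difference was 0.06, against -0.13 for all windows. Ssbp4 had 1088 and 749.9 scaled reads in betaTC3 and 34.4 and 20.4 with empty vector (difference 5.04 ± 0.30, adjusted p = 2.61e-05 by limma), and a window of Lmo2 was also higher (3.03, adjusted p = 0.00023 by limma). Ldb1 itself had 1228 and 643 scaled reads at its start in betaTC3 and 727 and 752 with empty vector, and was not called there (adjusted p = 0.473 by limma). A weaker Ldb1 window, 2.5 kb from the start, was lower (-2.25, adjusted p = 0.000654 by limma).

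The sine oculis (Six-class) factors, which act with the Eya phosphatases in kidney, muscle and sense organs, split within the family. Six2, which keeps nephron progenitors, had 482 and 326 scaled reads in betaTC3 and 0 in all 4 alphaTC1 libraries at chr17:85687613-85688013 (at least 122-fold higher than in empty vector, adjusted p = 6.5e-06 by limma). Over Six2 itself or within 1 kb, the betaTC3 lists held 1 and 2 peaks and each alphaTC1 list 1. The peak lists placed Six3, the neighbour of Six2 and a factor of forebrain and eye, with betaTC3, with peaks of 2151 and 2317 bp in the betaTC3 lists and none in the 4 alphaTC1 lists.

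Six4 was not called and Six5 was lower. Six4 had 684 and 747 scaled reads in betaTC3, 548 and 634 with knockdown and 669 and 692 with empty vector, and all 6 libraries lay within a narrow range (difference 0.07 ± 0.14, adjusted p = 0.682 by limma). Its chromosome, 12, had a median of 0.42, and after centring by chromosome the Six4 difference was -0.39. Six5 had 214 and 217 scaled reads in betaTC3 and 375 and 369 with empty vector (difference -0.78 ± 0.14, adjusted p = 0.00368 by limma), with a median of -0.59 on chromosome 7. The window 23 kb downstream of the Six2 start had at most 43.0 scaled reads in any library and was not called. Of the partners, Eya1 was lower in betaTC3 (252 and 262 scaled reads, against 624 and 661 with empty vector, adjusted p = 0.000145 by limma) and Dach2 higher (772 and 742, against 72.8 and 60.4, adjusted p = 1.05e-05). Dach1 was higher by 0.47 (adjusted p = 0.0338 by limma), and Eya3 was not called (adjusted p = 0.717). Eya2, Eya4 and Ldb2 had no window in the table used here.

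The distal-less (Dlx) genes lie in pairs, and the pairs behaved differently. Dlx3 and Dlx4 are known from skin, teeth and placenta. Their windows, 18.6 kb apart on chromosome 11, were both lower in betaTC3. Dlx4 had 0.799 and 1.90 scaled reads in betaTC3, 136 and 166 with knockdown and 155 and 174 with empty vector at chr11:95145754-95146154. The pooled reads were 128-fold lower than in empty vector, with an exact 95% counting interval of 43.3 to 623 (adjusted p = 1.21e-05 by limma). The Dlx3 window, 6.6 kb from the start and past the gene's end, had 2.4 and 5.71 scaled reads in betaTC3 and 101 and 94.1 with empty vector (difference -4.36 ± 0.35, adjusted p = 8.27e-05 by limma). Over Dlx3 itself or within 1 kb, none of the 6 lists held a peak. The chromosome median of -0.73 is far smaller than both differences.

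Dlx1 and Dlx2, forebrain interneuron factors whose windows are 16.8 kb apart on chromosome 2, went in opposite directions. Dlx1 had 99.8 and 88.5 scaled reads in betaTC3, 49.0 and 48.9 with knockdown and 37.1 and 47.9 with empty vector (difference from empty vector 1.14 ± 0.22, adjusted p = 0.00486 by limma). The Dlx2 start had 23.2 and 26.6 scaled reads in betaTC3, 80.0 and 113 with knockdown and 106 and 132 with empty vector (difference -2.21 ± 0.25, adjusted p = 0.00042 by limma). At neither gene did the lines overlap. The difference between the neighbours was not tested. Windows 33.9, 80.6 and 82.9 kb upstream of Dlx2 had 7.61 to 52.3 scaled reads, and only the farthest was called, higher in betaTC3 by 1.35 (adjusted p = 0.0304 by limma).

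**Figure D3:**
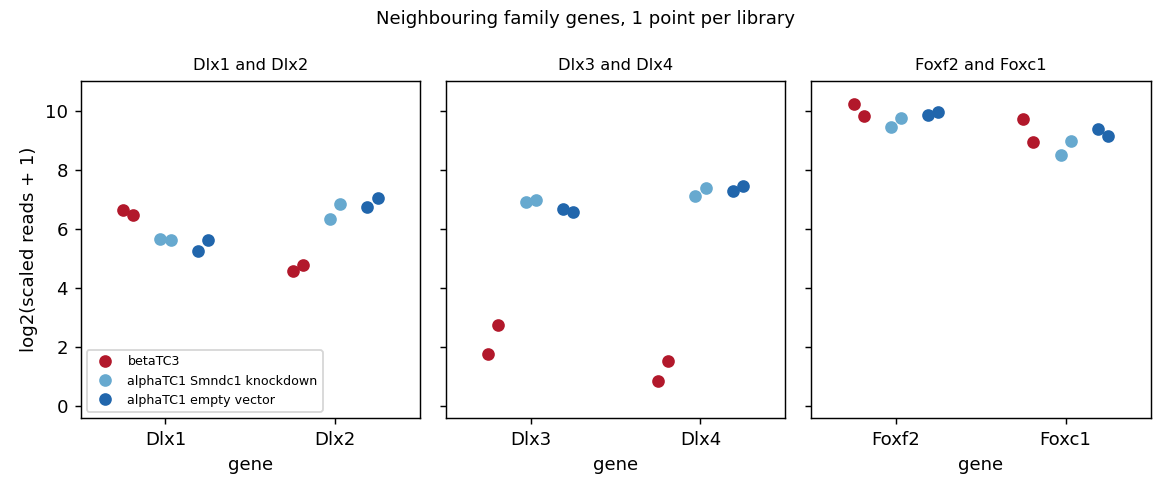
Log2(scaled reads + 1) in each library (points) at 3 pairs of neighbouring family genes, coloured by group. Dlx1 and Dlx2 differ in opposite directions, the windows of Dlx3 (6.6 kb from its start) and Dlx4 are both low in betaTC3, and Foxf2 and Foxc1 are high in all 6 libraries.

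The POU factors had called windows in both directions. Pou3f2, a neuronal factor also called Brn2, had 781 and 702 scaled reads in betaTC3, 2.39 and 4.19 with knockdown and 1.32 and 3.55 with empty vector at chr4:22487511-22487911. The ratio of means to empty vector was 304 (difference 7.83 ± 0.40, adjusted p = 1.41e-05 by limma), and the betaTC3 peaks there were 5177 and 6041 bp wide. A second Pou3f2 window, 10.6 kb away past the gene's end, was higher by 3.20, with 232 and 199.8 scaled reads in betaTC3 and 21.2 and 24.0 with empty vector. The window of Pou2f2, a B cell factor, lies inside the RefSeq gene and had 34.3 and 52.3 scaled reads in betaTC3 and 0 in all 4 alphaTC1 libraries (at least 13.1-fold higher, adjusted p = 2.18e-05 by limma). The gene as a whole was marked in both lines, with 3 and 2 peaks over it or within 1 kb in the betaTC3 lists and 2 in each alphaTC1 list. The other direction was taken by Pou3f1, a Schwann cell factor, with 16.0 and 21.9 scaled reads in betaTC3 and 261 and 234 with empty vector (13.1-fold lower, adjusted p = 1.95e-05 by limma). Pou4f2, a factor of retinal ganglion cells, had 0.799 and 3.81 scaled reads in betaTC3 and 34.4 and 55.0 with empty vector (19.4-fold lower, adjusted p = 0.000823 by limma).

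Pou2f1, which is expressed widely, and Pou6f1 were high in all libraries and not called. Pou2f1 had 1507 and 703 scaled reads in betaTC3, 569.7 and 734 with knockdown and 936 and 899 with empty vector (adjusted p = 0.708 by limma). The first betaTC3 library was far above the second there, as at several strong members. The pairs were compared at members with a mean over all 6 libraries of at least 100 scaled reads and signal in both libraries of the pair. In betaTC3 the first library was more than 1.5 times the second in 10 of 49 such members (20.4%), against 11.9% of all such windows. The count was 0 of 45 members for the knockdown pair and 0 of 47 for the empty-vector pair.

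Onecut2, a cut homeodomain factor of liver, pancreas and retina, was higher in betaTC3. Its start window on chromosome 18 had 1274 and 749 scaled reads in betaTC3, 128 and 147 with knockdown and 175 and 204 with empty vector (difference from empty vector 2.36 ± 0.26, adjusted p = 0.000329 by limma). The lines did not overlap, and the chromosome median was 0.26. A window 9.9 kb inside the gene had 25.6 and 44.7 scaled reads in betaTC3 and 42.4 and 27.5 with empty vector, and was not called (adjusted p = 0.982 by limma).

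The Meis and Pbx genes encode TALE homeodomain cofactors that bind DNA together with Hox and other factors, and all 7 were marked in every library. Of their 9 windows 3 were higher, 2 lower and 4 not called, so that 55.6% were called, against 55.2% of all windows. Meis1, a cofactor of blood and limb development, had 111 and 108 scaled reads in betaTC3, 679.6 and 797 with knockdown and 753 and 845 with empty vector, which is 7.31-fold lower than in empty vector (adjusted p = 1.19e-05 by limma). Pbx3 was higher, with 701 and 572 scaled reads in betaTC3 and 261 and 273 with empty vector (difference 1.24 ± 0.15, adjusted p = 0.0005 by limma). Meis2 was higher by 0.97 at its start and by 1.90 at a window 209.4 kb away, past the gene's end, where betaTC3 had 188 and 209 scaled reads and empty vector 55.6 and 49.7. Meis3 was lower (difference -0.48, adjusted p = 0.03 by limma) with a median of -0.59 on its chromosome, and its difference was 0.08 after centring by chromosome. A window 11.9 kb inside Pbx3 was not called (difference -0.55). Pbx2 and Pbx4 were not called (differences of -0.14 and 0.04). The Pbx3 peak was 4921 and 5821 bp wide in betaTC3 and 1440 to 1645 bp in alphaTC1, and the Meis1 peak 1961 and 1977 bp and 3689 to 4229 bp.

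The Hox genes were almost without signal. The table of windows held a single one, assigned to Hoxa7, 2.7 kb upstream of its start at chr6:52221418-52221818. It had 21.6 and 29.5 scaled reads in betaTC3, 37.0 and 39.1 with knockdown and 21.2 and 28.4 with empty vector, a weak window that was not called (difference 0.04 ± 0.28, adjusted p = 0.919 by limma). None of the 39 Hox genes of the RefSeq annotation had a peak over the gene body or within 1 kb of it in any of the 6 lists. Across the 105.5 kb of the Hoxa cluster 4 peaks were called over the 6 lists, 190 to 262 bp wide, all at this window. The Hoxb (173.9 kb), Hoxc (115.7 kb) and Hoxd (96.9 kb) clusters held 0 peaks and 0 windows.

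The Sox windows were called in both directions. Among the SoxD genes, Sox13 had 502 and 373 scaled reads in betaTC3 and 0 in all 4 alphaTC1 libraries at chr1:133423599-133423999 (at least 132-fold higher than in empty vector, adjusted p = 6.39e-06 by limma). A second Sox13 window 6.0 kb inside the gene was higher by 3.14. Sox5 and Sox6, the other SoxD genes and factors of cartilage and nerve cells, were weak, and their windows had peaks in the 4 alphaTC1 lists and not in betaTC3. Elsewhere over Sox5 or within 1 kb, the betaTC3 lists held 1 and 2 peaks. Sox5 had 15.2 and 30.5 scaled reads in betaTC3 and 47.7 and 46.2 with empty vector (difference -1.09 ± 0.35, adjusted p = 0.0356 by limma), while Sox6 was not called (difference -0.94 ± 0.39, adjusted p = 0.0859). Sox8, a SoxE factor, had 86.2 and 87.6 scaled reads in betaTC3, 0 in both knockdown libraries and 2.65 and 1.78 with empty vector (difference 4.79 ± 0.29, adjusted p = 2.52e-05 by limma).

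Of the SoxC genes, Sox11, a factor of developing neurons, had 89.4 and 67.6 scaled reads in betaTC3, 0 in both knockdown libraries and 3.97 and 0 with empty vector. The pooled ratio was 49.8, with an exact 95% counting interval of 16.8 to 244 (adjusted p = 0.000956 by limma). Sox4, the endocrine progenitor factor, was high in every library, with 821 and 719 scaled reads in betaTC3, 425 and 601 with knockdown and 719 and 670.3 with empty vector at its main window, and was not called (adjusted p = 0.548 by limma). An upstream Sox4 window at 4.6 kb was lower (difference -0.77, adjusted p = 0.0139 by limma), and 1 at 5.9 kb was not called. Sox12 was also high throughout, with 1181 and 712 scaled reads in betaTC3 and 1297 and 1280.1 with empty vector near its start (adjusted p = 0.142 by limma), while a window 7.7 kb upstream was lower (difference -1.10). The single Sox18 window, 4.0 kb upstream of that endothelial gene, had 40.5 to 75.2 scaled reads and was not called.

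The forkhead (Fox) genes were the largest family, with 13 of 21 windows not called, 4 higher and 4 lower. The called share was 38.1%, against 55.2% of all windows. Foxd4 had 44.7 and 46.6 scaled reads in betaTC3, 0 in both knockdown libraries and 1.32 and 2.66 with empty vector (difference 4.0 ± 0.32, adjusted p = 8.69e-05 by limma). Foxo6, a FOXO factor of brain and liver, was higher at its start, with 1434 and 845 scaled reads in betaTC3 and 410.4 and 385 with empty vector (difference 1.47 ± 0.27, adjusted p = 0.0036 by limma). A window 4.3 kb inside the gene was higher by 1.34, and Foxo6 was not called at a window 44.0 kb away (difference 0.06).

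The lower Fox windows were at Foxf1, Foxp2, Foxj1 and Foxk2. Foxp2, a factor of speech circuits in humans and of lung and brain, had 201 and 226 scaled reads in betaTC3, 733 and 886 with knockdown and 947 and 995 with empty vector (difference from empty vector -2.18 ± 0.15, adjusted p = 3.99e-05 by limma). Foxf1, a factor of gut and lung mesenchyme, had 39.1 and 53.3 scaled reads in betaTC3 and 250.2 and 290.3 with empty vector (difference -2.53 ± 0.25, adjusted p = 0.0002 by limma). Foxj1, the factor of motile cilia, differed by -1.02 ± 0.12 and Foxk2 by -0.69 ± 0.22, both on chromosome 11 with its median of -0.73.

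Among the Fox windows that were not called, the strongest were at Foxp1 and Foxn2. Foxp1, which is expressed widely, had 1108 and 1156 scaled reads in betaTC3, 1064 and 1242 with knockdown and 1267 and 1416 with empty vector, and betaTC3 lay within the range of the alphaTC1 libraries (difference -0.24 ± 0.16, adjusted p = 0.236 by limma). Foxn2 had 1007 and 639 scaled reads in betaTC3 and 1218 and 1200.2 with empty vector (adjusted p = 0.102). Foxf2 and Foxc1, mesenchymal factors with windows 181.2 kb apart on chromosome 13, had among the widest peaks of all members. The Foxf2 peak was 6717 and 7418 bp wide in betaTC3 and 7988 to 8986 bp in alphaTC1, and the Foxc1 peak 5420 and 5372 bp and 3981 to 4941 bp. The insulin-responsive Foxo1 had 1227 and 596 scaled reads in betaTC3 and 518 and 481 with empty vector, so the betaTC3 libraries were both higher but far apart (difference 0.78 ± 0.36, adjusted p = 0.11 by limma, not called). Foxk1, a factor of muscle progenitors, was not called at its start, with 914 and 791 scaled reads in betaTC3 and 818 and 843 with empty vector, nor at a window 33.5 kb upstream (differences of 0.03 and -0.38). Foxo3 and Foxo4 were not called, with differences of -0.31 and 0.16.

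The 2 T-box windows went in opposite directions. Tbx15, a factor of skeleton and muscle, was at 0 in both betaTC3 libraries and had 275 and 348 scaled reads with knockdown and 387 and 396 with empty vector at chr3:99253969-99254369. That is at least 149-fold lower in betaTC3 than in empty vector (difference -8.62 ± 0.22, adjusted p = 5.83e-06 by limma). Tbx6, a factor of paraxial mesoderm, had 95 and 124 scaled reads in betaTC3, 2.39 and 0 with knockdown and 0 in both empty-vector libraries (at least 33.0-fold higher, adjusted p = 0.000101 by limma).

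All 4 Gata windows were called lower in betaTC3, against 33.2% of all windows. Gata6, which acts in endoderm and the pancreatic bud, had 20.8 and 27.6 scaled reads in betaTC3, 329.7 and 437 with knockdown and 441 and 453 with empty vector (18.5-fold lower than in empty vector, adjusted p = 1.35e-05 by limma). That holds for its window, as each of the 6 lists held 1 peak over Gata6 itself or within 1 kb. Gata4, its close relative, had 6.39 and 2.85 scaled reads in betaTC3 and 75.5 and 84.3 with empty vector (17.3-fold lower, adjusted p = 0.000146 by limma), although the median on chromosome 14 was 0.64 in the other direction. Gata3, a factor of T cells and trophoblast, had 17.6 and 27.6 scaled reads in betaTC3 and 172 and 156 with empty vector (7.27-fold lower). Gata2, a factor of blood progenitors, was 2.50-fold lower at a window 4.7 kb inside the gene. The Gata cofactors Zfpm1, Zfpm2 and Tal1 had 4 windows, and all 4 were lower too, where 33.2% of all windows were lower. Zfpm2 had 23.2 and 34.3 scaled reads in betaTC3 and 154 and 163 with empty vector (difference -2.45 ± 0.26, adjusted p = 0.000279 by limma). For all 4 Gata windows the lines did not overlap. Such separation from empty vector was common among the 77 members, with 28 higher and 33 lower in betaTC3. Its share over all windows is not given here, so no trait of the members is read from it.

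The peak lists were read for the windows and for genes outside the table. Of the 77 windows, 42 (54.5%) had a peak in all 6 lists, against 67.1% of all windows. A peak in both betaTC3 lists and none of the alphaTC1 lists was found at 14 (18.2%, against 11.9%), and in all 4 alphaTC1 lists and neither betaTC3 list at 13 (16.9%, against 9.6%). The remaining 8 had other patterns. Over genes, 161 protein-coding genes of RefSeq GRCm38.p6 met the name rule. Of these, 49 (30.4%) had a peak in all 6 lists within the gene or 1 kb of it, 11 (6.83%) in both betaTC3 lists only, 8 (4.97%) in the 4 alphaTC1 lists only and 88 (54.7%) in no list. Of all 21887 protein-coding genes the shares were 52.9%, 3.51%, 2.0% and 38.6%. Without the 39 Hox genes the families' shares were 40.2%, 9.02%, 6.56% and 40.2%.

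**Figure D4:**
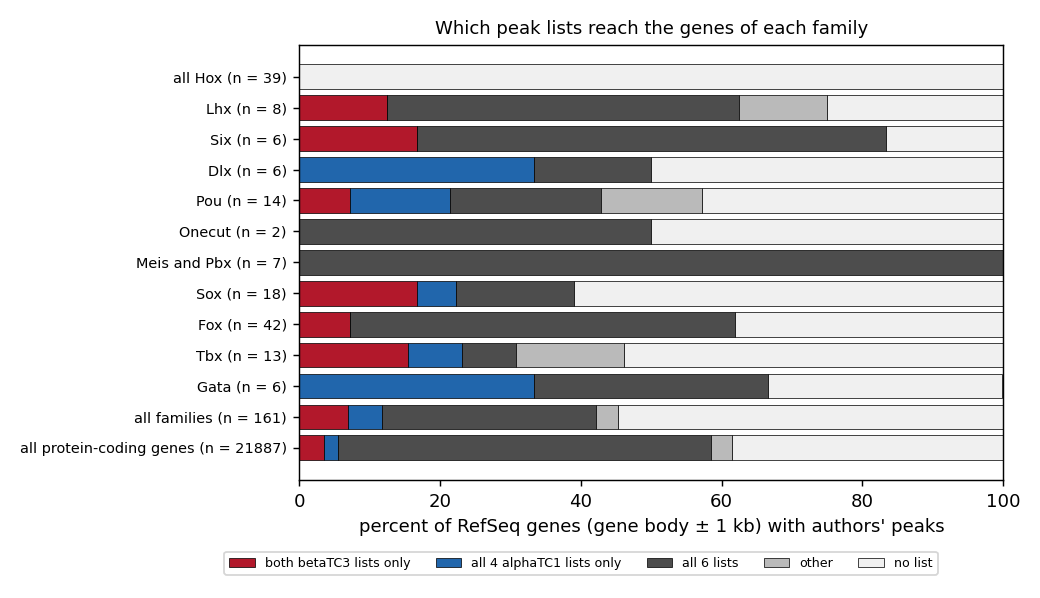
Share of RefSeq protein-coding genes (percent, stacked bars) of each family with the authors' peaks in the gene or within 1 kb, by which of the 6 lists held one. All 7 Meis and Pbx genes had peaks in all 6 lists and all 39 Hox genes in none.

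Some members of the families had peaks but no window in the table used here. Foxa3, Foxd2, Foxh1, Foxm1, Foxn1, Foxn3, Foxq1, Lhx6 and Tbx10 had peaks in all 6 lists. Foxm1, a factor of dividing cells, had peaks of 2500 and 2739 bp in betaTC3 and 2690 to 2869 bp in alphaTC1. Lhx6, an interneuron factor, had a widest peak of 1498 and 1540 bp in betaTC3 and of 268 to 429 bp in alphaTC1. Six3, Tbx2 and Foxr2 had peaks in both betaTC3 lists only, which at Tbx2 and Foxr2 were 452 to 553 bp wide. Their scaled reads were not analysed here.

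Peaks at members were wider than those at all such windows by an amount that varied between the lists. Among windows within 1 kb of a start, the member peaks had a median width of 1715 to 2016 bp over the 6 lists, against 1511 to 1783 bp for all protein-coding windows so placed. The medians were close in the first knockdown list (1841 against 1783 bp) and the second empty-vector list (1769 against 1705 bp). They were farthest apart in the first betaTC3 list (1961 against 1511 bp). Peaks over 2000 bp made up 43.6 to 53.8% of the members and 25.8 to 37.8% of all. Wide peaks were found both at genes marked in 1 line, such as Pou3f2 and Lhx1, and at genes marked in both, such as Foxf2, Foxc1, Onecut2 and Meis2.

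The second comparison asked what changed 5 days after Smndc1 knockdown in alphaTC1 cells. No member was called against empty vector by limma (0.0% of all 17641 windows were called). At an unadjusted p under 0.05 there were 10 of 77 members, 2 higher and 8 lower, against 35.0% of all windows. How many members passed in each direction depended on the scaling. By edgeR with TMM there were 10 of 77 members at that level, 8 higher and 2 lower, against 12.4% of all windows. By edgeR with the deposited scaling there were 16 (20.8%), 1 higher and 15 lower, against 37.3% of all windows. By DESeq2 there were 4 (5.19%), 3 higher and 1 lower, against 6.11%. The TMM and DESeq2 shares were thus near those of all windows. The knockdown libraries had lower sums, with 5410817 and 6709387 summed scaled reads, against 7921856 and 8189318 with empty vector. The median difference was -0.27 over members and -0.37 over all windows, with 57 members below 0 and 15 above 0. With libraries centred these medians were 0.11 and 0.0, so single differences are read against -0.37. The knockdown libraries lay below both empty-vector libraries at 43 members and above both at 9, against 64.6% and 6.85% of all windows.

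Among the members with the smallest p in the lower direction were Sox8, Pbx2, Foxd4 and Foxo3. Sox8 and Foxd4 had 0 in both knockdown libraries. With empty vector, Sox8 had 2.65 and 1.78 scaled reads and Foxd4 1.32 and 2.66, near the floor of 3 reads, so no fold is given (differences -1.67 and -1.54, adjusted p = 0.1 and 0.117 by limma). Pbx2, a widely expressed cofactor, had 442 and 534 scaled reads with knockdown and 838 and 881 with empty vector, without overlap (difference -0.82 ± 0.15, adjusted p = 0.117 by limma). Foxo3 had 442 and 537 scaled reads with knockdown and 689.8 and 689.8 with empty vector (difference -0.50 ± 0.16, adjusted p = 0.12 by limma). The median over all windows was -0.37.

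In the higher direction the smallest p belonged to weak windows. The window assigned to Meis2 209.4 kb from its start had 78.8 and 93.6 scaled reads with knockdown and 55.6 and 49.7 with empty vector (difference 0.70 ± 0.19, adjusted p = 0.117 by limma). The windows 80.6 and 33.9 kb upstream of Dlx2 differed by 0.78 and 0.39, Hoxa7 by 0.61 and Tbx6 by 0.88, all at or below 39.1 scaled reads with knockdown and with adjusted p of 0.13 to 0.331 by limma. Tbx6 rested on the first knockdown library, at 2.39 scaled reads, which is 2 reads.

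The count of 0 changed without the second knockdown library. Then 12 of 77 members (15.6%) were called, 1 higher and 11 lower, against 35.6% of all windows, where the lone knockdown library was given the spread of the other libraries. Among the lower ones were Sox8, Foxd4, Pbx2, Foxp4, Foxk2, Sox4, Foxo3, Gata2 and Meis2, with differences of -1.67 to -0.50, and Tbx6 was higher by 1.76. The members with large differences between the lines were also read here. The windows of Lhx1, Lhx9 and Pou2f2 and the start windows of Six2 and Sox13 were at 0 in both knockdown libraries. Gata6, Gata4, Gata3, Dlx4, Tbx15 and Pou3f1, all lower in betaTC3, differed from empty vector by -0.47 to -0.12 with knockdown, and none was called.

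**Figure D5:**
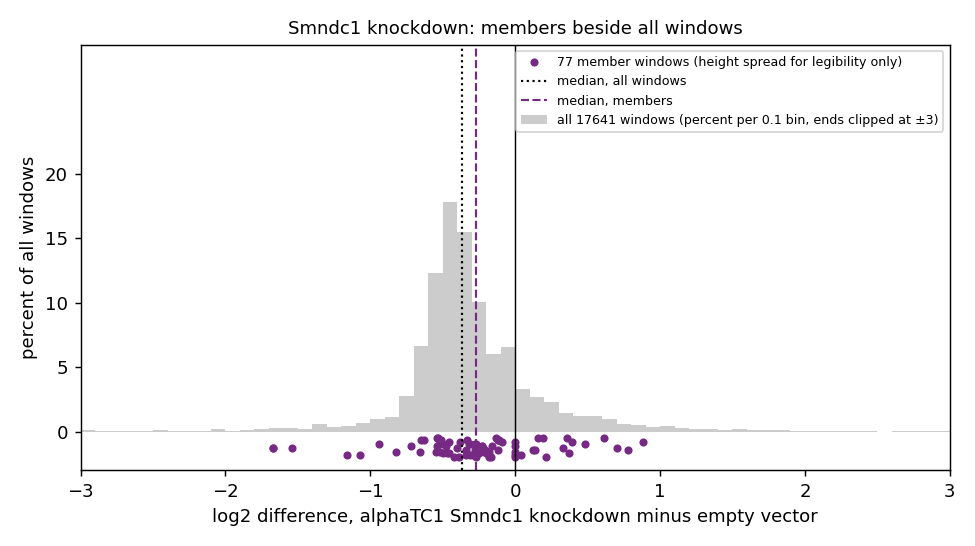
Log2 difference between Smndc1 knockdown and empty vector in alphaTC1 cells for all 17641 windows (grey histogram, percent of windows per bin) and the 77 members (purple points below it, vertical spread only for legibility). Dotted and dashed lines mark the medians, -0.37 over all windows and -0.27 over members.

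The third comparison set betaTC3 against the knockdown. It shares libraries with both others, so only its own values are given. Of the 77 windows, 30 were called higher and 18 lower (62.3%), against 60.6% of all windows (36.6% higher and 24.0% lower). The median was 0.23 over all windows and 0.34 over members, beside the lower totals of the knockdown libraries. Lhx1 differed by 9.70, Six2 by 8.64, Sox13 by 8.76, Tbx15 by -8.28 and Gata6 by -3.93 (adjusted p of 5.7e-06 to 1.58e-05 by limma). Pbx2 was higher by 0.68 (adjusted p = 0.00871 by limma), as were Foxo1 by 1.49 and Foxj3 by 1.06, where the betaTC3 libraries were uneven. These 3 calls were lost without the first betaTC3 library (differences of 0.58, 0.97 and 0.60, adjusted p = 0.0727, 0.092 and 0.0542 by limma). The Foxo1 call was also lost without the first knockdown library (difference 1.18, adjusted p = 0.0934 by limma). The Foxj3 call was also lost without any 1 of the 4 alphaTC1 libraries (adjusted p of 0.0522 to 0.114 by limma) and with only the groups compared (0.0527). Without the first betaTC3 library 39 of the 48 calls remained, and 42 to 45 without any 1 of the other 5.

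The regulators of these gene families were counted from lists of partner and repressor genes. Of 33 windows of 25 Polycomb genes, 2 were called higher in betaTC3 against empty vector and 11 lower, with a median of -0.20. Beside these stand 22.1% of all windows higher, 33.2% lower and a median of -0.13, so the lower share of the Polycomb windows (33.3%) was near that of all windows. The start window of Ezh1, a Polycomb methyltransferase, had 934 and 572 scaled reads in betaTC3 and 1192 and 1207 with empty vector (1.59-fold lower, adjusted p = 0.0455 by limma). A weaker Ezh1 window 5.4 kb from the start was lower too (31.1 and 25.7 scaled reads in betaTC3, against 266 and 263 with empty vector, adjusted p = 1.67e-05 by limma). Ezh2, the methyltransferase of dividing cells, was not called, with 1594 and 1132 scaled reads in betaTC3 and 1131 and 1257 with empty vector (adjusted p = 0.54 by limma). Of 20 windows of 17 Trithorax and demethylase genes 0 were higher and 4 lower, among them Kdm5a (difference -0.96) and the start of Kdm5b (difference -0.82). Of 8 windows of the 6 Tle corepressors 1 was higher and 2 lower. A Tle6 window 3.8 kb from the start was lower, with 7.19 and 7.61 scaled reads in betaTC3 and 99.3 and 95.9 with empty vector (adjusted p = 3.09e-05 by limma). The Tle6 start window had 14.4 and 19.0 scaled reads in betaTC3 and 9.27 and 16.9 with empty vector and was not called (difference 0.37, adjusted p = 0.402 by limma). None of these lists had a window called after knockdown.

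Of the 43 windows of other homeodomain families, 17 (39.5%) were higher in betaTC3 and 16 (37.2%) lower. Over all windows 22.1% were higher and 33.2% lower, so the lower share was near that of all windows. The median was 0.19, against -0.13 for all windows, and 34 of the 69 listed genes were present. Among the lowest adjusted p values were those of Irx1, lower in betaTC3, and of Tgif2 and Isl2, higher. Irx1, an alpha cell factor, had 0.799 and 0 scaled reads in betaTC3 and 1152 and 1189.6 with empty vector (adjusted p = 6.3e-06 by limma). Tgif2 had 75.9 and 87.6 scaled reads in betaTC3 and Isl2 68.7 and 92.3, and both were at 0 in all 4 alphaTC1 libraries.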

How the data were processed

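Chromatin of 3 groups of 2 libraries was immunoprecipitated, with 1 input per group. Per the submitters' processing notes, MACS2 2.2.7.1, Picard 2.19.2 and Bowtie2 2.4.1 were used, with build mm10 (GRCm38). The authors' deposited signal table gives reads per 401 bp window multiplied by 1 factor per library, and the origin of that factor is not stated by the labels. All values were whole reads within 0.001 after division by that factor. The deposited peak lists, 1 per library, give a score, a fold enrichment and −log10 p and q values, which were the authors' own. The table had 0 further value columns.

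Scaled reads were fitted as log2(value + 1) over all 6 libraries with limma 3.58.1 (R 4.3.3) and Benjamini-Hochberg adjustment over 17641 windows. Recovered reads were tested with edgeR 4.0.16 and DESeq2 1.42.0 as alternatives. The steps were tested on simulated data. A peak was placed at a window on an overlap of at least 1 bp. Promoters and gene bodies came from RefSeq GRCm38.p6. Python 3.11.15, pandas 2.3.3, numpy 2.4.6, scipy 1.17.1 and matplotlib 3.10.9 were used.

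The members and lists were chosen with earlier results of these data known. Named were, per family, up to 5 called windows in each direction and up to 2 strong windows not called, the 5 with the lowest p in each direction after knockdown, windows over 10 kb away, every window of a gene with several, and up to 4 called partner genes per list. Foxc1, Foxf2, Foxo1, Foxo4, Foxj3, Pbx4, Sox6 and Sox18 were named after their values were seen. Results for some genes are not reported here.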

Additional observations from a re-analysis of the deposited data

How the results depend on the processing

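Against empty vector, all windows called higher in betaTC3 numbered 6050.0 with libraries centred on their medians, 6225 with edgeR and TMM, and 6073 with DESeq2. Among windows within 1 kb of a start tested alone, 14 members were higher, and 1982 of all windows were higher and 3340.0 lower. Leaving out 1 library at a time gave 23 to 27 members higher and 16 to 20 lower, and 2830.0 to 4203 of all windows higher and 3764 to 6438 lower. For betaTC3 against knockdown these ranges were 23 to 31, 16 to 19, 3478 to 7402 and 3045 to 4336, and windows within 1 kb of a start gave 19 members higher and 2031 of all windows lower.

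After knockdown, a pseudocount of 0.1 gave 3 members lower, and 67 of all windows higher and 268 lower. Without the trend in limma there were 2 members lower, and 27 windows higher and 136 lower. Over all windows, only the groups compared gave 4 higher and 27 lower, edgeR with the deposited scaling 3 and 80.0, DESeq2 3 and 7, and windows within 1 kb of a start 2 and 4. Leaving out 1 library gave 0 to 1 member higher and 0 to 11 lower, and 0 to 243 of all windows higher and 0 to 6038 lower. Member windows with a peak in both lists of a group numbered 58 in betaTC3, 61 in knockdown and 58 in empty vector. With only peaks at or above the median −log10 q of their list, there were 30 in each group. The same counts over all windows are not given here. The causes of these changes were not tested.

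None of the windows whose sign turned was called in the betaTC3 comparison with empty vector except Meis3. With chromosomes centred, Foxp1 was at 0.23, Meis3 at 0.08, Pbx2 at 0.14 and Six4 at -0.39 (adjusted p = 0.0373 by limma). Pbx2 was at 0.04 with libraries centred, 0.03 with TMM and 0.09 with DESeq2. The Onecut2 window at 9.9 kb was at 0.17 with libraries centred, 0.20 with TMM, 0.03 with the deposited scaling, 0.25 with DESeq2, 0.29 without empty-vector replicate 1 and between -0.41 without betaTC3 replicate 2 and 0.38 without betaTC3 replicate 1. Hoxa7 was at -0.00135 with edgeR and the deposited scaling, and from -0.18 without betaTC3 replicate 2 to 0.26 without betaTC3 replicate 1, with -0.16 without empty-vector replicate 1. Without betaTC3 replicate 1, Pou2f1 was at -0.38 and Pou6f1 at -0.06, and without replicate 2 they were at 0.72 and 0.76. Tbx6 after knockdown was at 0.0 without knockdown replicate 1 and 1.76 without replicate 2.

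Same-numbered libraries shared only a number, with correlations of -0.176, 0.085 and -0.0079 between their deviations. With a replicate block, 25 members were higher and 18 lower in betaTC3 against empty vector (3713 and 5439 of all windows), 28 and 19 against knockdown (5872 and 4019), and 0 after knockdown. With 2 libraries per group, and windows of a few reads in 1 line, depth limits the small differences and the folds of windows near 0.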
